A study of Mus musculus with 6 samples.

Results

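The 50 genes described here encode proteins that copy DNA or make its building blocks, and all 50 were measured among 19938 genes on arrays of mouse bone marrow stem and progenitor cells. Members were taken from a list by gene symbol, and where a gene had several rows the row with the highest mean over the 6 arrays was kept. The sort kept cells with c-kit and Sca-1 but without lineage markers or Flk2, in which hematopoietic stem cells and early progenitors are enriched. The study compared 3 samples labelled p65 wild-type mouse with 3 labelled p65 knockout mouse, numbered 1 to 3 in each genotype. Each number had 1 array of amplified total RNA. The titles do not say whether cells of several animals were pooled. The series title places the deletion of p65, the NF-κB subunit encoded by Rela, in the hematopoietic compartment. The labels used here name neither the deleting Cre nor the age of the mice, and no further treatment. Values are the deposited log2 signals, so a difference of 1 is a doubling.

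DNA replication starts at origins that the origin recognition complex marks. Cdc6 and Cdt1 load the ring-shaped MCM helicase there during G1, and geminin blocks Cdt1 once S phase has begun. The kinase Cdc7 with its activator Dbf4, together with CDK activity that Cdc25a promotes, then turns the ring into an active helicase with Cdc45 and the GINS complex. Polymerase α with primase lays down primers, polymerases δ and ε extend them on the PCNA clamp, and Fen1 and Lig1 join the lagging-strand pieces. Ribonucleotide reductase, thymidylate synthase and thymidine kinase supply deoxynucleotides. Stem cells of this gate are mostly quiescent, whereas progenitors cycle. Many of these transcripts are higher in dividing cells, but the members do not all follow the cell cycle to the same degree.

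Rela was 7.52, 7.89 and 7.92 in wild-type arrays, and 7.33, 7.48 and 7.35 in knockout arrays. Its log2 fold change of -0.39 missed the threshold (limma adjusted p = 0.209), while it fell by 0.51 on the log2 scale without wild-type replicate 1 (limma adjusted p = 0.04). The position of its probes relative to the deleted part was not analysed here. The SD of all values was 2.03 in wild-type replicate 1 against 2.22 to 2.29 in the other 5 arrays, and each main result is given with and without it. Of 7 sort and stem cell markers 1 fell, Hlf, which encodes a transcription factor of stem cells. Hlf was 9.47, 9.90 and 9.98 in wild-type arrays, and 8.31, 8.93 and 8.30 in knockout arrays (log2 fold change -1.27, limma adjusted p = 0.0485). Mecom (-1.22) and Procr (-0.69) were also lower without overlap and did not pass with all arrays. Without wild-type replicate 1 Kit (c-kit), Procr, Hlf and Mecom fell, Kit by 0.48 on the log2 scale (limma adjusted p = 0.04999), and in the fit blocked by replicate number Hlf and Mecom fell. Flt3 (Flk2), Cd34 and Slamf1 passed in none of these fits, and Ly6a was not analysed here. Of 10 markers of granulocyte-monocyte progenitors 9 rose. That list's mean deviation ran from -1.19 to -1.07 in the wild-type arrays and from 0.93 to 1.29 in the knockouts. None of 8 mature myeloid markers passed limma (1 had an unadjusted p under 0.05). Of 7 lymphocyte markers Nkg7 rose (log2 fold change 1.09, limma adjusted p = 0.0483). Cd3d, Cd3e, Ighm and Cd4 were lower without overlap and did not pass with all arrays. Over all 19938 genes, 3067 were lower without overlap. Without wild-type replicate 1 Cd3d fell (limma adjusted p = 0.0492) and Nkg7 rose (limma adjusted p = 0.0185). None of 5 erythroid and megakaryocyte or 8 stroma and endothelium markers passed with all arrays. Emcn of the latter fell in the blocked fit (-1.48, limma adjusted p = 0.0283). With all arrays 0.687% of all genes were called higher and 0.13% lower. Without wild-type replicate 1 these shares were 3.28% and 1.38%, and in the blocked fit 1.41% and 0.451%. No marker read 0, and what level marks absence was not tested. The part of these markers in the results below was not tested.

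All 50 replication genes had a higher mean in knockout than in wild-type, but single differences were small and only Rrm2, the small subunit of ribonucleotide reductase, passed the threshold. Log2 fold changes ran from 0.13 for Pcna to 1.03 for Rrm2, with a median of 0.51 against -0.04 over all genes. Thus 1 of 50 members rose, 0 fell and 49 did not pass limma at an adjusted p under 0.05, against 0.687% of all genes called higher and 0.13% called lower. Among the 6646 brightest genes 1.26% were called higher, and 1 call in 50 does not set the members apart from that background. At an unadjusted limma p under 0.05, 29 members were higher (58.0%) and 0 lower, against 13.8% and 7.76% of all genes. Among the brightest genes 32.9% had such a p in either direction. Without wild-type replicate 1 the median was 0.32, and 8 members rose (16.0%) and 0 fell, against 3.28% and 1.38% of all genes. The 8 were Rrm2, Fen1, Orc2, Dbf4, Rpa3, Cdc45, Pole2 and Cdt1, and over 16 alternatives their limma adjusted p ran from 0.00362 (Rrm2) to 0.595 (Cdt1). With the replicate number as a block 3 rose (Rrm2, Fen1 and Dbf4), against 1.41% of all genes and 2.75% of the brightest, and 0 fell, against 0.451%. In bulk RNA, more dividing cells and more RNA of these genes per cell cannot be told apart.

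Brightness matters for reading these values, because differences between the genotypes varied with signal level. All genes were split by mean signal into 3 equal groups of 6646. Of the 50 members 45 lay among the brightest genes and 5 in the middle group. The brightest genes had a median log2 fold change of 0.30, and 86.7% of them were positive, so a positive sign alone is common at this brightness. Of the 50 members 41 lay above 0.30. Without wild-type replicate 1 the brightest genes had a median of 0.13, and 7.52% of them were called higher. Cyclic loess normalization, which removes such level-dependent shifts, lowered the members' median to 0.20 and left 40 of 50 positive, while quantile normalization gave 0.22 and 38 of 50. The 10 that turned negative under cyclic loess were Mcm5, Mcm6, Gins2, Pola2, Pold2, Pcna, Rfc1, Rfc2, Rpa2 and Lig1, and quantile normalization added Mcm2 and Uhrf1.

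**Figure D1:**
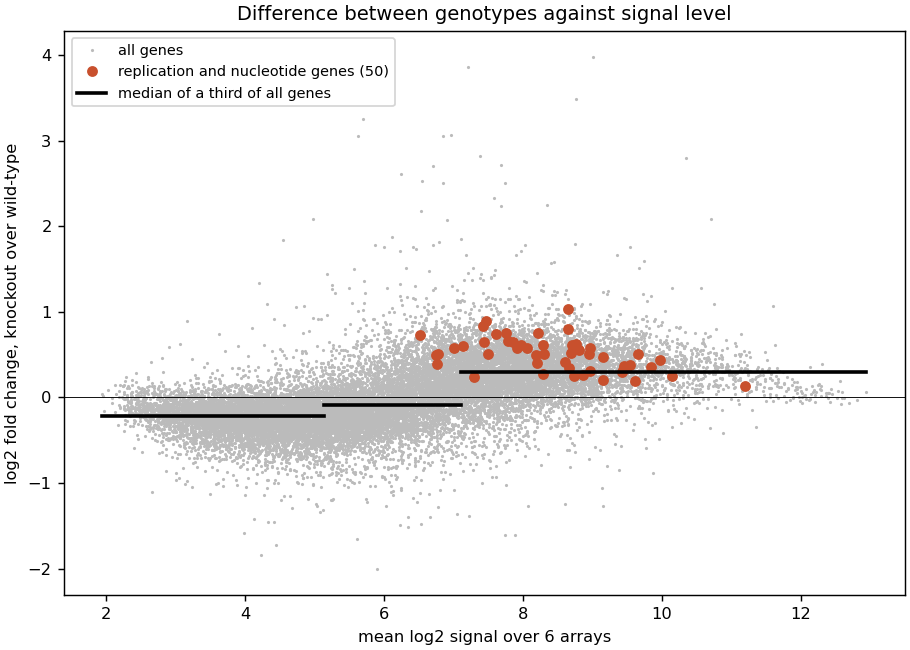
Log2 fold change of knockout over wild-type (vertical axis) against mean log2 signal over 6 arrays (horizontal axis) for all genes (grey) and the 50 replication and nucleotide genes (orange); black lines are medians of 3 equal groups of all genes by signal. The members lie between 0.13 and 1.03, and the black lines step from -0.22 through -0.09 to 0.30.

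The 3 knockout values lay above all 3 wild-type values in 38 of 50 members (76.0%), where 19.2% of all genes and 43.9% of the brightest genes showed such a separation. In the other 12 the groups overlapped. The median SD of a member was 0.08 in knockout and 0.31 in wild-type, and the knockout SD was the smaller in 49 of 50 (98.0%), against 82.2% of all genes and 92.7% of the brightest. With wild-type replicates 2 and 3 alone the wild-type median SD was 0.14, and the knockout SD was the smaller in 37 of 50 (74.0%), against 49.8% and 55.4%. Wild-type replicate 1 had the lowest value of all 6 arrays in 47 of 50 members, as it did in 84.2% of the brightest genes. Wild-type replicates 2 and 3 also differed, since replicate 3 lay below replicate 2 in 39 of 50 members (78.0%), against 51% of the brightest genes. Relative to each gene's mean over the 6 arrays, members averaged -0.56, -0.01 and -0.18 in wild-type replicates 1 to 3 and 0.23, 0.22 and 0.31 in the knockouts.

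Promoters of the members carry a known mark of this group, the binding motif of E2F factors, which switch on S-phase genes. RefSeq promoter sequences (GRCm38.p6, 250 bases before to 50 after a start site) were found for 42 of 50 members, with 52 promoters. Gmnn, Mcm4, Gins1, Gins2, Gins4, Prim2, Pole and Rfc2 had none in the table. The letters TTTCCCGC, TTTGGCGC, TTTCGCGC and TTTGCCGC were searched on both strands, and matches may overlap. At least 1 of these was in 34.6% of the member promoters, against 2.26% of all 32851 promoters and 4.73% of promoters of the brightest genes. The letters CCAAT stood in 55.8% of member promoters, 37.4% of all and 37.2% of those of the brightest genes. The letters TTTGAA stood in 15.4% of member promoters, between the share in all (17.9%) and in the brightest (12.2%). The κB consensus, which NF-κB binds, matched 5.77% of member promoters (3 of 52), 8.46% of all and 10% of the brightest. This motif was added after the expression values were seen.

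A few stretches show what was found, each written 5′ to 3′ on the gene's strand. Mcm6 is shown because its promoter held the most E2F motifs (3), and Mcm5 because it shares 12 bases with Mcm6 in the opposite orientation. Cdt1 and Pole2 are the members that rose without wild-type replicate 1 and hold an E2F motif. Rrm2 is the member that rose with all 6 arrays in the fit. Capitals mark E2F motifs in the first 4 and the CCAAT letters in Rrm2.
Mcm6, chr1:128359731-128359830, minus strand, 125 to 26 bases before the start: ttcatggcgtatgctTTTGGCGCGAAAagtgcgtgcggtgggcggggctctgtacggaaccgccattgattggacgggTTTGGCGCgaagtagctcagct
Mcm5, chr8:75109309-75109408, plus strand, 200 to 101 bases before the start: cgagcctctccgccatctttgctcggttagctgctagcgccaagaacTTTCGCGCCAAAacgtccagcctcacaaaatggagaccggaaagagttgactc
Cdt1, chr8:122568035-122568064, plus strand, bases 21 to 50 of the transcript: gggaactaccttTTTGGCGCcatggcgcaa
Pole2, chr12:69228162-69228191, minus strand, at the start site: cgtcggcggtgGCGCCAAAtcgcgaacatg
Rrm2, chr12:24708154-24708253, plus strand, 100 bases before the start: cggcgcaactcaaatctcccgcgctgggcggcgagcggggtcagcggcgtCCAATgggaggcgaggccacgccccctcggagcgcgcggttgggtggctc
The 12 bases TTTGGCGCGAAA of Mcm6, or their reverse complement TTTCGCGCCAAA as in Mcm5, occurred in 4 of the 32851 promoters, 2 of them these. They were taken from the overlapping E2F motifs of Mcm6, so Mcm6 is among the 4 by construction. Members with an E2F motif did not have the larger differences: the median log2 fold change was 0.41 in the 18 with a motif and 0.56 in the 24 without, or 0.26 and 0.40 without wild-type replicate 1. A match describes letters in this window and does not show binding.

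The deoxynucleotide enzymes held the single member past the threshold. Rrm2 read 7.81, 8.41 and 8.21 in wild-type arrays, and 9.13, 9.13 and 9.25 in knockout arrays. The groups did not overlap, and the lowest knockout lay well above the highest wild-type. Rrm2 rose 2.04-fold from 8.14 ± 0.30 to 9.17 ± 0.07 (SD, n = 3 each; log2 fold change 1.03, SE 0.18, limma adjusted p = 0.0476), and 1.82-fold without wild-type replicate 1 (limma adjusted p = 0.0162). It passed under 11 of 16 alternatives, with a limma adjusted p from 0.00362 to 0.263. Leaving out any 1 of the other 5 arrays ended the call.

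Its partner Rrm1, the large catalytic subunit, read 9.02, 9.56 and 9.63 in wild-type arrays, and 9.96, 9.88 and 9.89 in knockout arrays. The difference of 0.51 did not pass (limma adjusted p = 0.178). Within each array, the log2 signal of Rrm2 minus that of Rrm1 was -1.22, -1.15 and -1.42 in wild-type arrays, and -0.83, -0.75 and -0.64 in knockout arrays. This difference between the subunit genes moved by 0.52 between genotypes, and by 0.55 without wild-type replicate 1. Partner genes were set against each other in 9 pairs, chosen after their values were seen. Of these 4 separated the genotypes (Rrm2 and Rrm1, Fen1 and Lig1, Cdc45 and Mcm5, Dbf4 and Cdc7). The other 5 overlapped, with shifts of -0.05 for Tk1 minus Tyms, -0.03 for Cdt1 minus Gmnn, 0.14 for Pole2 minus Pole, 0.18 for Rpa3 minus Rpa1 and 0.23 for Orc2 minus Orc1. A pair's shift equals the difference between the log2 fold changes of its genes, so the choice of unlike members fixed it in advance. How often other gene pairs separate was not determined, and no pair was tested. Tyms (thymidylate synthase) had a log2 fold change of 0.55 and Tk1 (thymidine kinase) of 0.51, both without overlap between groups and neither past the threshold (limma adjusted p = 0.182 and 0.151). The other row of Tk1 gave 0.71.

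Of the lagging-strand enzymes, Fen1, the nuclease that trims Okazaki fragments, came closest to Rrm2. Fen1 was 6.89, 7.15 and 6.98 in wild-type arrays, and 7.78, 7.73 and 7.999 in knockout arrays. Wild-type replicate 1 was close to the other wild-type arrays here. The log2 fold change was 0.83 (SE 0.15, limma adjusted p = 0.0515), and 0.77 without wild-type replicate 1, where Fen1 rose (limma adjusted p = 0.0269). With the replicate block it also rose (limma adjusted p = 0.0444). Lig1, the ligase that seals the same fragments, was 8.76, 9.24 and 9.19 in wild-type arrays, and 9.20, 9.22 and 9.36 in knockout arrays. These groups overlapped, and the log2 fold change was 0.20, with a 95% interval from -0.18 to 0.58. Fen1 minus Lig1 within arrays was -1.87, -2.09 and -2.21 in wild-type arrays, and -1.43, -1.49 and -1.36 in knockout arrays, without overlap.

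**Figure D2:**
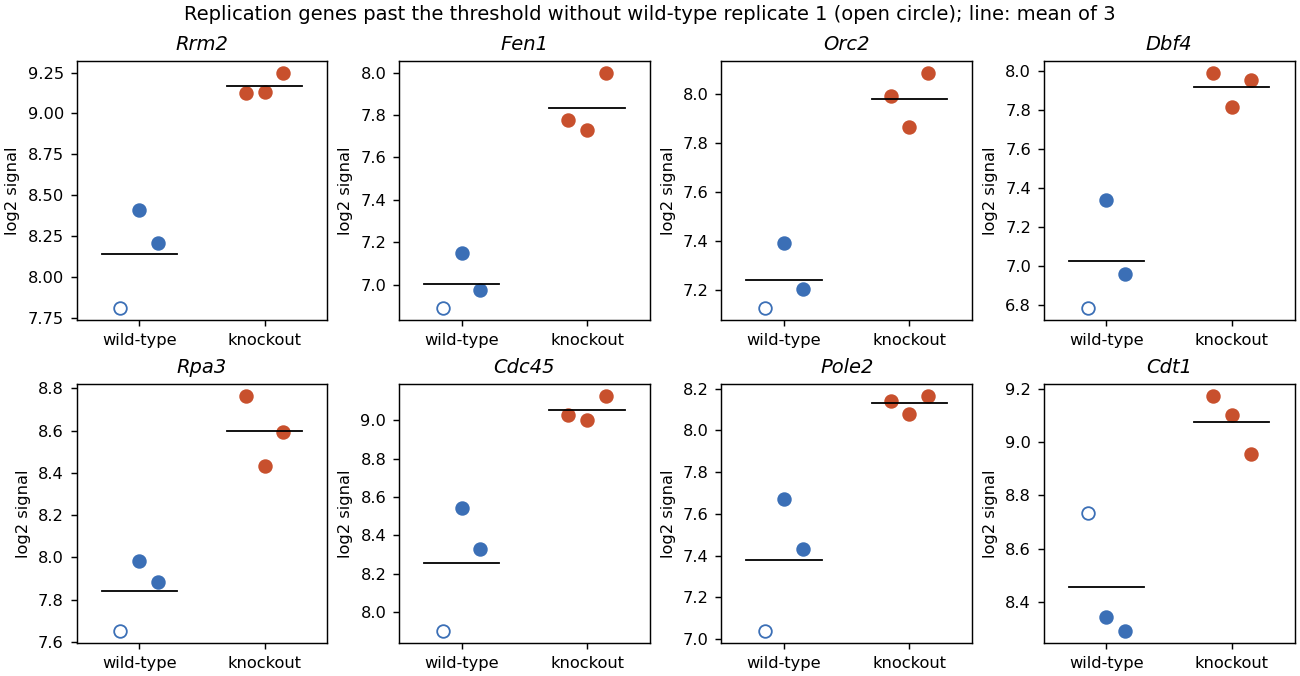
Log2 signal of the 8 replication genes that passed the threshold without wild-type replicate 1, by genotype; each point is 1 array, the open circle is wild-type replicate 1 and lines are means of 3. Knockout values lie above all wild-type values in each gene, and wild-type replicate 1 is the lowest point in all but Cdt1.

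Origin recognition complex genes had log2 fold changes from 0.39 to 0.74. Orc2 had the largest, with 7.13, 7.39 and 7.21 in wild-type arrays, and 7.99, 7.87 and 8.09 in knockout arrays (SE 0.14, limma adjusted p = 0.0618). It rose without wild-type replicate 1 (log2 fold change 0.68, limma adjusted p = 0.0301). Orc1, the subunit whose level changes most over the cell cycle, had 0.51 with overlapping groups. Orc3, Orc4 and Orc6 separated the groups, with 0.52, 0.49 and 0.58, and Orc5 did not (0.39). None of these 5 passed with or without wild-type replicate 1.

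Among the licensing genes, Cdt1 was the exception in wild-type replicate 1. It was 8.73, 8.34 and 8.29 in wild-type arrays, and 9.17, 9.10 and 8.95 in knockout arrays, so wild-type replicate 1 was the highest wild-type value. Its log2 fold change of 0.62 (limma adjusted p = 0.11) therefore grew to 0.76 without that array, and Cdt1 rose there (SE 0.11, limma adjusted p = 0.0209). Gmnn, which encodes the Cdt1 inhibitor geminin, had 6.48, 7.72 and 7.14 in wild-type arrays, and 7.64, 7.72 and 7.93 in knockout arrays. Wild-type replicate 2 of Gmnn was as high as knockout replicate 2, and the log2 fold change was 0.65, or 0.33 without wild-type replicate 1, past the threshold in neither. Cdc6 had 0.60 without overlap (limma adjusted p = 0.156).

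The 6 subunits of the MCM ring, Mcm2 to Mcm7, did not pass the threshold. Their log2 fold changes ran from 0.25 to 0.48 with all arrays and from 0.09 to 0.30 without wild-type replicate 1. None passed (lowest limma adjusted p = 0.121 without that array). With all arrays only Mcm4 of the ring had an unadjusted limma p under 0.05. Among the 8 MCM-named genes Mcm8 and Mcm10 also did. Such a p in either direction was found in 21.6% of all genes and 32.9% of the brightest. Mcm3, Mcm4, Mcm6 and Mcm7 separated the groups, while Mcm2 and Mcm5 overlapped. Mcm4 had the largest value of the ring, with 8.56, 9.08 and 9.11 in wild-type arrays, and 9.35, 9.38 and 9.45 in knockout arrays. The difference was 0.48 (95% interval 0.07 to 0.88, limma adjusted p = 0.185), and 0.30 without wild-type replicate 1 (95% interval 0.07 to 0.52). Mcm6 and Mcm5 had the smallest values. Mcm6 was 9.71, 10.21 and 10.16 in wild-type arrays, and 10.26, 10.29 and 10.27 in knockout arrays. Mcm5 was 8.42, 9.04 and 8.73 in wild-type arrays, and 8.95, 8.98 and 9.05 in knockout arrays, so wild-type replicate 2 was among the knockouts. Without wild-type replicate 1 the 95% interval of the log2 fold change was -0.13 to 0.31 for Mcm6 and -0.18 to 0.39 for Mcm5. Under cyclic loess normalization both had negative values (-0.08 each). Mcm5 and Mcm6 are also the members that share the 12-base element printed above, and a link between that element and these values was not tested.

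Mcm8 and Mcm10 are not part of that ring: Mcm8 acts with a related helicase in repair, and Mcm10 helps to activate the loaded helicase. Mcm8 was 5.75, 6.42 and 6.29 in wild-type arrays, and 6.72, 6.84 and 7.07 in knockout arrays. Its log2 fold change of 0.72 was the largest of the MCM-named genes (SE 0.20, limma adjusted p = 0.122), and it was 0.67 under cyclic loess normalization. Mcm10 had 0.58, again without overlap and not past the threshold.

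Cdc45, which joins the MCM ring to form the active helicase, was 7.90, 8.54 and 8.33 in wild-type arrays, and 9.03, 9.004 and 9.13 in knockout arrays. Its log2 fold change was 0.80 (SE 0.18, limma adjusted p = 0.0861), and it rose without wild-type replicate 1 (0.62, limma adjusted p = 0.0333). Set against Mcm5 within each array, Cdc45 lay -0.52, -0.50 and -0.40 in wild-type arrays, and 0.08, 0.02 and 0.08 in knockout arrays, a shift of 0.53 without overlap. The GINS genes were uneven, with log2 fold changes of 0.66 for Gins1, 0.62 for Gins4, 0.30 for Gins2 and 0.24 for Gins3, and Gins4 alone separated the groups. No GINS gene passed with or without wild-type replicate 1.

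Dbf4, the activating subunit of the Cdc7 kinase that triggers origins, was 6.79, 7.34 and 6.96 in wild-type arrays, and 7.99, 7.82 and 7.95 in knockout arrays. The log2 fold change of 0.89 (SE 0.17) was the second largest of the 50 (limma adjusted p = 0.0622). Dbf4 rose without wild-type replicate 1 (0.77, limma adjusted p = 0.033) and in the fit blocked by replicate number (limma adjusted p = 0.0487). The kinase gene Cdc7 itself had 0.58 and did not pass with or without wild-type replicate 1. Within arrays Dbf4 minus Cdc7 was 0.39, 0.38 and 0.17 in wild-type arrays, and 0.77, 0.57 and 0.54 in knockout arrays. Cdc25a, a phosphatase that activates CDKs, had 0.40, or 0.19 without wild-type replicate 1.

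**Figure D3:**
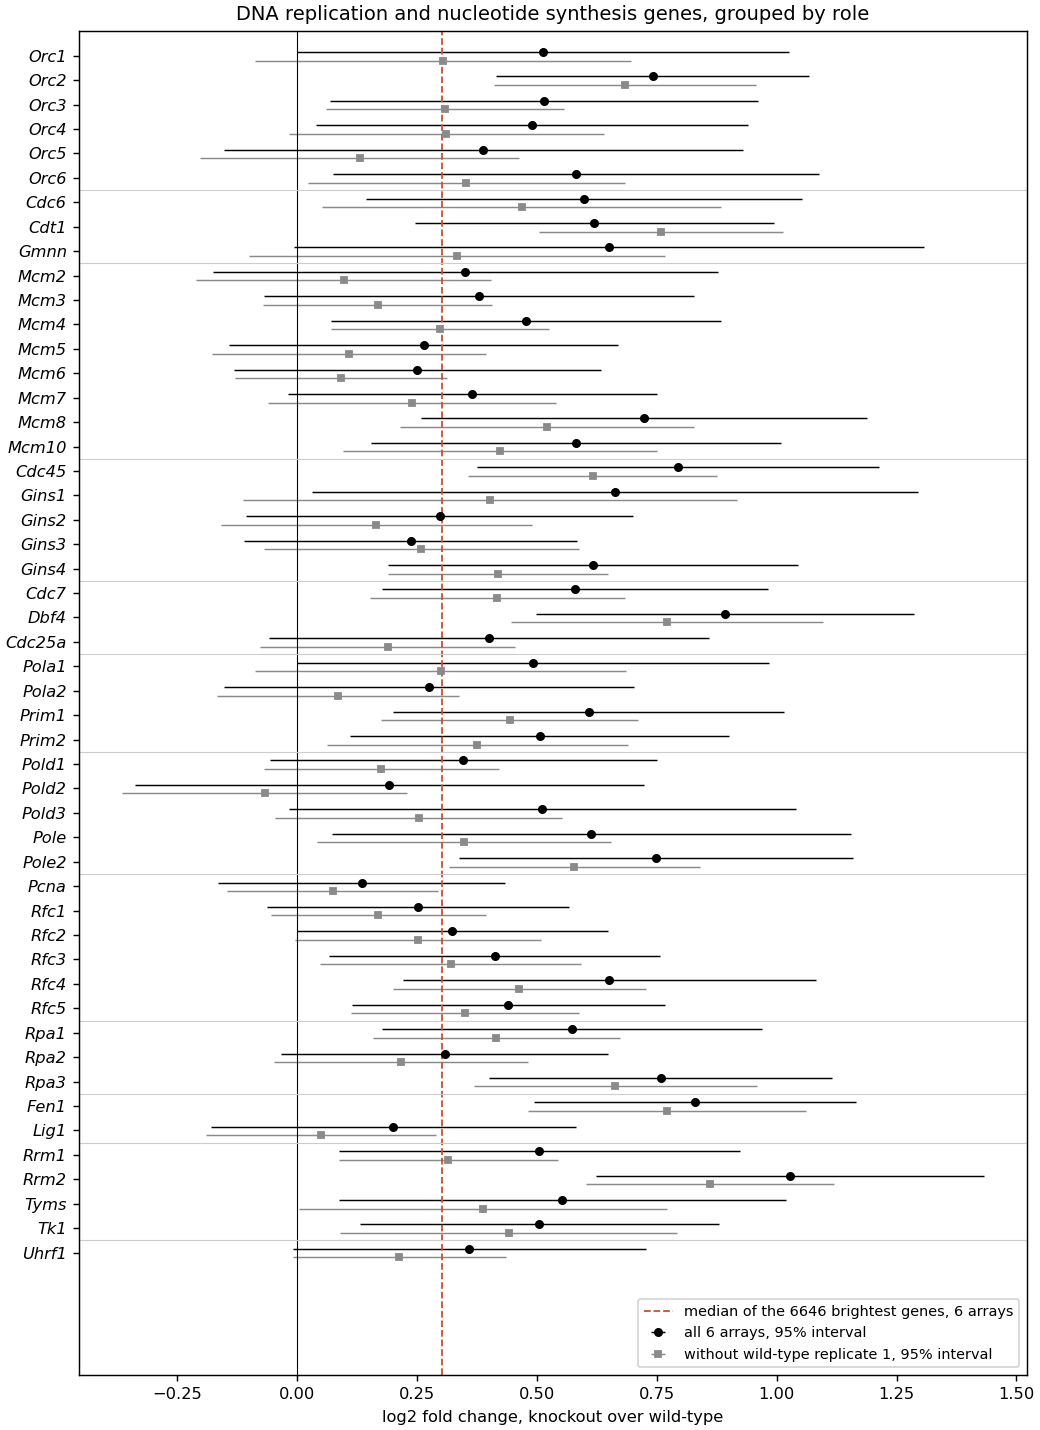
Log2 fold change of knockout over wild-type with its 95% interval for each of the 50 genes, grouped by role, with all 6 arrays (black) and without wild-type replicate 1 (grey); the dashed line is the median of the 6646 brightest genes (0.30). Rrm2 lies farthest to the right at 1.03 and Pold2 is the gene that turns negative (-0.07) without wild-type replicate 1.

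The polymerase genes ranged widely within complexes. Pole2, the second subunit of polymerase ε, was 7.04, 7.67 and 7.43 in wild-type arrays, and 8.14, 8.08 and 8.16 in knockout arrays, with a difference of 0.75 (limma adjusted p = 0.091). It rose without wild-type replicate 1 (0.58, limma adjusted p = 0.0393). Pole, the catalytic subunit, had 0.61 and Pold3 0.51, both without overlap and not past the threshold. Pold1, the catalytic subunit of polymerase δ, had 0.35. Pold2 was 8.997, 9.90 and 9.65 in wild-type arrays, and 9.62, 9.66 and 9.85 in knockout arrays, so the highest value of all arrays was a wild-type one. Its log2 fold change was 0.19 with all arrays and -0.07 without wild-type replicate 1, with a 95% interval from -0.36 to 0.23 in the latter.

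Prim1, the catalytic primase subunit, had the largest difference of the polymerase α-primase genes. It was 8.07, 8.51 and 8.62 in wild-type arrays, and 8.92, 8.96 and 9.15 in knockout arrays (log2 fold change 0.61, limma adjusted p = 0.13). Prim2 had 0.51 without overlap, while Pola1 (0.49) and Pola2 (0.27) overlapped between groups. None of the 4 passed with or without wild-type replicate 1.

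Pcna, the sliding clamp, had the smallest difference of all 50 members. It was 11.01, 11.20 and 11.17 in wild-type arrays, and 11.25, 11.29 and 11.24 in knockout arrays, so the groups separated by a narrow margin. The log2 fold change was 0.13 with a 95% interval from -0.16 to 0.43. Its other row gave 0.15. The Rfc clamp loader genes separated the groups in each of the 5, where 43.9% of the brightest genes did. None of the 5 passed with or without wild-type replicate 1. Rfc4 had the largest value, with 7.15, 7.79 and 7.65 in wild-type arrays, and 8.09, 8.15 and 8.30 in knockout arrays (log2 fold change 0.65, limma adjusted p = 0.129). Rfc5, Rfc3, Rfc2 and Rfc1 followed with 0.44, 0.41, 0.32 and 0.25, and the last 2 turned negative under cyclic loess normalization.

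RPA coats single-stranded DNA as a trimer. Rpa3, its smallest subunit, was 7.65, 7.98 and 7.88 in wild-type arrays, and 8.76, 8.43 and 8.59 in knockout arrays, with a difference of 0.76 (SE 0.16, limma adjusted p = 0.0713). It rose without wild-type replicate 1 (0.66, limma adjusted p = 0.0378), and its other row gave 0.54. Rpa1 had 0.57 and Rpa2 0.31, both without overlap, and neither passed with or without wild-type replicate 1. Uhrf1, which guides maintenance DNA methylation to newly copied DNA, was 9.38, 9.78 and 9.85 in wild-type arrays, and 10.03, 10.04 and 10.02 in knockout arrays. Its log2 fold change was 0.36 (limma adjusted p = 0.239) and turned negative under quantile normalization (-0.01).

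Members with higher signal had smaller differences. Across the 50 genes, which share the same 6 arrays, Spearman's rho between mean log2 signal and log2 fold change was -0.547, and -0.498 without wild-type replicate 1. Over the 6646 brightest genes rho was 0.119 and 0.142, and over all 19938 genes 0.634 and 0.372. Genes are not independent replicates, so these are descriptions.

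Among genes outside the list that act in the same process, fork and nucleotide synthesis genes had median differences near the members' 0.51. The median of replication-coupled chromatin genes was closer to the 0.30 of the brightest genes. Of 30 other fork and origin factors 1 rose, 0 fell and 29 did not pass limma, with a median log2 fold change of 0.51. The median was 0.30 and 5 rose without wild-type replicate 1, and with replicate number as a block 2 rose. In these fits, in that order, 0.687%, 3.28% and 1.41% of all genes were called higher. Of the brightest genes the shares were 1.26%, 7.52% and 2.75%. The gene that rose with all arrays was Cdca5, which encodes the cohesin protector sororin, with 7.15, 7.59 and 7.39 in wild-type arrays, and 8.65, 8.84 and 8.68 in knockout arrays (log2 fold change 1.35, limma adjusted p = 0.0131). Of 28 other nucleotide synthesis genes 1 rose, Nme2, a nucleoside diphosphate kinase gene (log2 fold change 0.77, limma adjusted p = 0.0483), and the list's median was 0.49. That median was 0.29 and 5 rose without wild-type replicate 1, to be read against the same shares. With all arrays, 1 call in each of these lists does not set it apart from those shares. With all arrays 2 genes of the nucleotide synthesis list had negative values, and neither passed. These were Rrm2b, which encodes the ribonucleotide reductase subunit used outside S phase, and Tk2, the mitochondrial thymidine kinase gene. Without wild-type replicate 1, 5 of that list were negative and none was called lower. Rrm2b (-0.27) and Dctd (-0.24) were then lower without overlap, as were 4283 of all 19938 genes. Of 10 replication-coupled chromatin genes none passed, and their median was 0.35, or 0.14 without wild-type replicate 1. The brightest genes, among which 9 of the 10 lay, had medians of 0.30 and 0.13. An unadjusted limma p under 0.05 was found in 4 of the 10 (40.0%), against 32.9% of the brightest genes.

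Mitosis genes had larger values than the replication genes. Of 29 measured, 26 lay among the brightest genes. Top2a stands both in this list and in that of other fork and origin factors. With all arrays 5 of the 29 rose, against 0.687% of all genes and 1.26% of the brightest. None fell, against 0.13% of all genes. The median log2 fold change was 0.82, against 0.30 in the brightest genes. Knockout lay above wild-type without overlap in 29, against 19.2% of all genes and 43.9% of the brightest. Without wild-type replicate 1 the median was 0.71 and 18 rose, against 3.28% of all genes and 7.52% of the brightest. With replicate number as a block 11 rose, against 1.41% and 2.75%. Bub1, a checkpoint kinase gene, had the smallest p, with 6.89, 7.31 and 7.08 in wild-type arrays, and 8.15, 8.21 and 8.36 in knockout arrays. The mitosis list averaged -0.64, -0.15 and -0.42 in the wild-type arrays and 0.36, 0.32 and 0.53 in the knockouts, where the replication members averaged 0.23, 0.22 and 0.31. The difference between these lists was not tested.

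**Figure D4:**
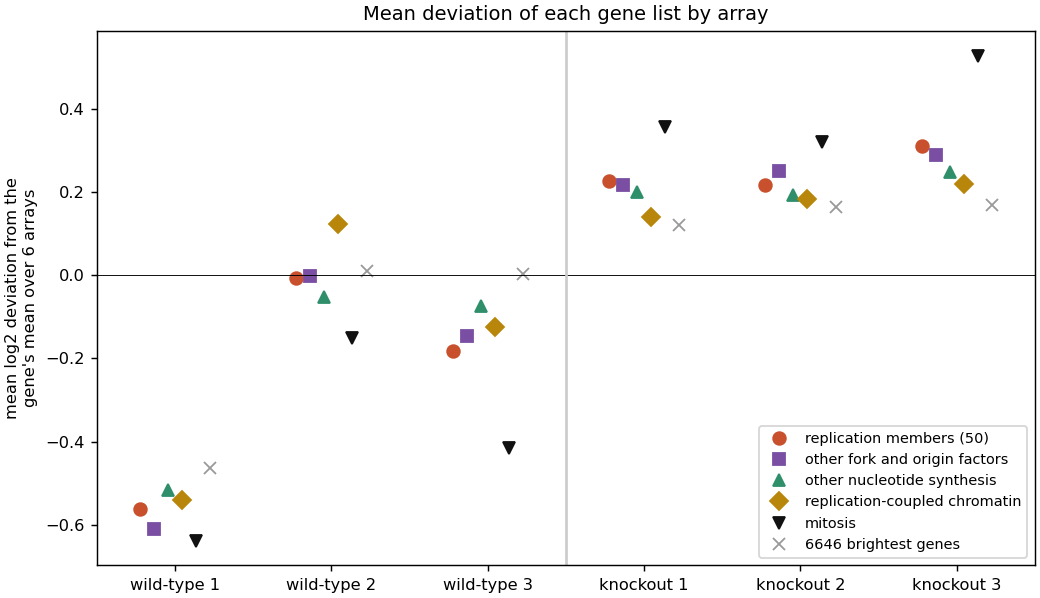
Mean log2 deviation of each gene list from its genes' means over 6 arrays (vertical axis), by array (horizontal axis). The 50 members lie at -0.56 in wild-type 1, at -0.01 and -0.18 in wild-type 2 and 3 and at 0.22 to 0.31 in the knockouts, and mitosis genes (black) lie above them in each knockout.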

How the data were processed

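The 3 p65 wild-type and 3 p65 knockout arrays were used. The values are log2 signals as the authors deposited them, 1 column per array. Partek, RMA (which corrects background, normalizes and summarises probes) and Affymetrix Expression Console appear, with no version, in the submitters' processing notes. An exon array (Mouse Exon 1.0 ST) stands in the design text, whereas the probe annotation is that of Mouse Gene 1.0 ST, and which holds was not settled. Of 35557 rows 21789 had 1 gene symbol, 1621 several and 12147 none, which left 19938 genes. The fit used limma 3.58.1 under R 4.3.3 with genotype as the only term, knockout minus wild-type, two-sided, Benjamini-Hochberg over all genes, threshold 0.05. Tested on 5 simulated data sets of 19938 genes, it found 50.6% of genes shifted by a log2 value of 1 and 90.8% of those shifted by 2. It made 5.8 false calls per run. The simulated noise was independent between genes, without an array-wide shift such as that of wild-type replicate 1. Both shifts exceed the members' median of 0.51, so these shares do not describe differences of that size. Deviations of same-numbered arrays correlated at r = 0.368, 0.119 and 0.162, each over the minimum of 0.1, so blocked values are given where they change a call. Differently numbered pairs ran from -0.305 to 0.195, so numbers 2 and 3 are not told apart by this check. Exact permutation of 3 against 3 arrays cannot give p below 0.1. All members are named; values in every array follow a rule on calls and the largest difference per role. Members and lists were chosen with earlier results of these data known.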

Additional observations from a re-analysis of the deposited data

How the results depend on the processing

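The number of members called higher was 1 in all 6 arrays and also with quantile normalization, cyclic loess normalization and an intensity trend. It was 3 with the replicate block, 5 with arrays centred on their medians, 6 without the dimmest 6646 genes, 13 with array weights and 2 with the mean of a gene's rows. The 13 were the 8 called without wild-type replicate 1 and Cdc7, Gins4, Mcm8, Rfc4 and Rpa1. Leaving out 1 replicate gave 0 to 8, and the 8 came from leaving out wild-type replicate 1. The alternatives added after seeing the data gave 2 (without wild-type replicate 1, cyclic loess) and 3 (the same with quantile normalization). No member was called lower under any of the 16 alternatives. The median log2 fold change of members moved to 0.22 with quantile and 0.20 with cyclic loess normalization, and without wild-type replicate 1 to 0.18 with either. Leaving out 1 replicate gave 0.32 to 0.60. Apart from the 2 calls it added, the replicate block changed no call of a member. Why calls differed between settings was not tested. The number of arrays limits the precision, and scanner background was not used here.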
